A study of Mus musculus with 278 samples.

Results

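The 10 genes described here code for the secreted insulin-like growth factor (IGF) binding proteins Igfbp2 to Igfbp7, the ligands Igf1 and Igf2, and the receptors Igf1r and Igf2r. They were taken by name as members of this family, with earlier results of these data known. Of the 14145 genes of the expression table, 7 were members: Igfbp2, Igfbp3, Igfbp4, Igfbp6, Igfbp7, Igf1r and Igf2r. Igfbp5, Igf1 and Igf2 have no row in the table used and were not analysed here. Nothing can therefore be said about the ligands or about Igfbp5. All 7 members with a row passed the filter on low values, which kept 12355 genes, and Igfbp7 passed it through cells of a single series.

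The data are RNA sequencing profiles of single mouse keratinocytes, cultured from adult dorsal skin and caught on a Fluidigm C1 chip. In every group, wild-type cells were grown with K14ΔNβ-cateninER cells at a ratio of 9 to 1, and the question was how cells respond when Wnt signalling is switched on in their neighbours. K14ΔNβ-cateninER is a stabilised beta-catenin under the control of a basal keratin promoter, joined to an oestrogen receptor domain, and is switched on by 4-hydroxytamoxifen (4OHT). Treated cultures received 200 nM 4OHT for 24 h and untreated cultures received the solvent DMSO, and the medium of all cultures held serum and insulin. The cells came from 2 series of libraries named AG and GHA501A, which gave 4 sets: 66 untreated and 64 treated AG cells, and 71 untreated and 69 treated GHA501A cells. Transgenic and wild-type cells were not told apart here, so about 1 in 10 cells of a set may carry the transgene if the mixing ratio was kept. The labels do not say whether the series came from different animals.

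IGF1 and IGF2 act mainly through the tyrosine kinase receptor encoded by Igf1r, which signals through insulin receptor substrates, PI3K and AKT. The IGF2 receptor, which is also the mannose 6-phosphate receptor of the lysosomal sorting pathway, takes up IGF2 and does not signal as a kinase. IGF-binding proteins hold the ligands outside the cell with high affinity and thereby limit or prolong their action, while the IGFBP7 protein binds IGFs weakly. In skin, the dermis is a known source of IGF1, and keratinocytes carry the receptor.

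The label of the GHA501A cells goes against their markers, and this touches each result that follows. All samples are labelled keratinocytes. A keratinocyte score and a fibroblast score were taken as the mean log2(TPM + 1) over 11 and 7 marker genes in the table, where TPM is a transcript level scaled by gene length and to the same total in every cell, and cells whose scores lay at least 1 apart were called keratinocyte-marker or fibroblast-marker cells. These are ranges of a score and not cell types. Of the AG cells, 66 of 66 untreated and 63 of 64 treated were keratinocyte-marker cells. Of the GHA501A cells, 62 untreated and 55 treated were fibroblast-marker cells, 8 and 12 were keratinocyte-marker cells and 1 and 2 lay between. Median Krt14, a basal keratin, was 4864 and 4997 TPM in untreated and treated AG cells and 2.25 and 10.1 TPM in GHA501A cells, whereas median Col1a1, a collagen of fibroblasts, was 0 and 0 TPM in AG and 1123 and 909 TPM in GHA501A. The cells held like numbers of genes over 1 TPM, with set medians from 6008 to 6392. The median summed level of the keratinocyte list was 11111 and 10241 TPM in untreated and treated AG cells and 8.59 and 44.1 TPM in GHA501A cells, and that of the fibroblast list was 5.91 and 2.07 TPM in AG and 1478 and 1258 TPM in GHA501A. Itgb4, of the keratinocyte list, was at 0 in every AG cell. The summed endothelial, immune and pericyte markers had medians of 0 in all sets, and the melanocyte markers had medians from 7.75 to 45.2 TPM.

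On GRCm38, the genes of the members lie apart on 6 chromosomes. Igfbp3 is at chr11:7206086-7213923 on the minus strand and Igfbp4 at chr11:99041244-99054392 on the plus strand. Igfbp2 is at chr1:72824503-72852474 (plus), Igfbp6 at chr15:102144362-102149511 (plus) and Igfbp7 at chr5:77349240-77408041 (minus). Igf1r is at chr7:67952827-68233668 (plus) and Igf2r at chr17:12682406-12769664 (minus). The antisense RNA Airn, at chr17:12741311-12860136 on the plus strand, overlaps Igf2r, and without a stated strand setting the reads of both cannot be told apart, so Igf2r levels are uncertain to that extent.

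The 250 bases before the RefSeq start (GRCm38.p6) of the 4 binding protein genes that differed between the series are printed so that their make-up can be compared. Capitals mark 3 motifs searched on both strands, whose matches do not overlap in these windows. The letters TATAAA are a core promoter element near many start sites. The letters GGGCGG are the site of SP1-like factors, and CTTTGAT is the site of the TCF and LEF factors, through which beta-catenin acts.
Igfbp3 (chr11:7213924-7214173, minus strand): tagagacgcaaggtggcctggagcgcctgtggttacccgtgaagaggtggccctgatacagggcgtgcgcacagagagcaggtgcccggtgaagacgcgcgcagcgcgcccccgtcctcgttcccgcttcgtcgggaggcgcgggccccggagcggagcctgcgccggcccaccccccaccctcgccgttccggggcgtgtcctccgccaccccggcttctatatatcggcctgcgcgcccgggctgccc
Igfbp4 (chr11:99040994-99041243, plus strand): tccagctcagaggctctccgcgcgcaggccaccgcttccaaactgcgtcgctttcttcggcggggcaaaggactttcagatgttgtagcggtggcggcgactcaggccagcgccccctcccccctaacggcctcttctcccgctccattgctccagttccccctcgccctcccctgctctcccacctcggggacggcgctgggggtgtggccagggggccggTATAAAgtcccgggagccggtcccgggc
Igfbp6 (chr15:102143936-102144185, plus strand): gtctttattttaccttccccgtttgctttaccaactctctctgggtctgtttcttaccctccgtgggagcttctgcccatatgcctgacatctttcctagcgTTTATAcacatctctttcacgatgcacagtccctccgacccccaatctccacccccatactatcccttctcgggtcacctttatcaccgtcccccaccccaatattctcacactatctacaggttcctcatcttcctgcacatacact
Igfbp7 (chr5:77408046-77408295, minus strand): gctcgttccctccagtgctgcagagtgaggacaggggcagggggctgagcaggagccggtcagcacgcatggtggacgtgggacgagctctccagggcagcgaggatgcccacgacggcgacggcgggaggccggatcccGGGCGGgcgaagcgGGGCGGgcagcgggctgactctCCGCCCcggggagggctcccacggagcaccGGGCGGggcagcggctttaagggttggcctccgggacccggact

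Igfbp4 held TATAAA at position -28 from the start, and Igfbp6 held it on the reverse strand at position -148. The Igfbp6 window ends at 102144185, before the gene start of 102144362 given above. Its position and GC content therefore refer to another start than that gene position. Igfbp7 held GGGCGG 4 times, and Igfbp3 held none of the 3 motifs. Only these exact letters were searched, so near variants of TATAAA in any window, that of Igfbp3 included, were not counted. None of these 4 windows held CTTTGAT. Among 32851 RefSeq windows of the same length, 12.4% held TATAAA, 32.7% held GGGCGG and 3.21% held CTTTGAT. The GC content was 73.2%, 69.2%, 49.6% and 74% in Igfbp3, Igfbp4, Igfbp6 and Igfbp7, against a median of 52.4% over all windows. A match is only a run of letters and was not tied to the levels that follow.

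The series differed in which binding protein gene they expressed. Of the binding protein genes with a row, AG cells carried mainly Igfbp3, the main carrier of IGFs in serum. GHA501A cells carried Igfbp4, Igfbp6 and Igfbp7. Over all genes tested, 31.2% passed the thresholds (adjusted p under 0.05 and a log2 difference over 0.5) between the series, with 19.3% higher and 11.9% lower in GHA501A, so a difference between the series is common. Of the 7 members, 3 were higher in GHA501A (Igfbp4, Igfbp6 and Igfbp7), 1 was lower (Igfbp3) and 3 did not pass (Igfbp2, Igf1r and Igf2r). The median log2 difference was 1.46 over the members and 0.01 over all genes tested. Igfbp7 passed the filter only through the series where it was high, so its place in this count is no support. The series and the marker classes cannot be told apart in this comparison.

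**Figure D1:**
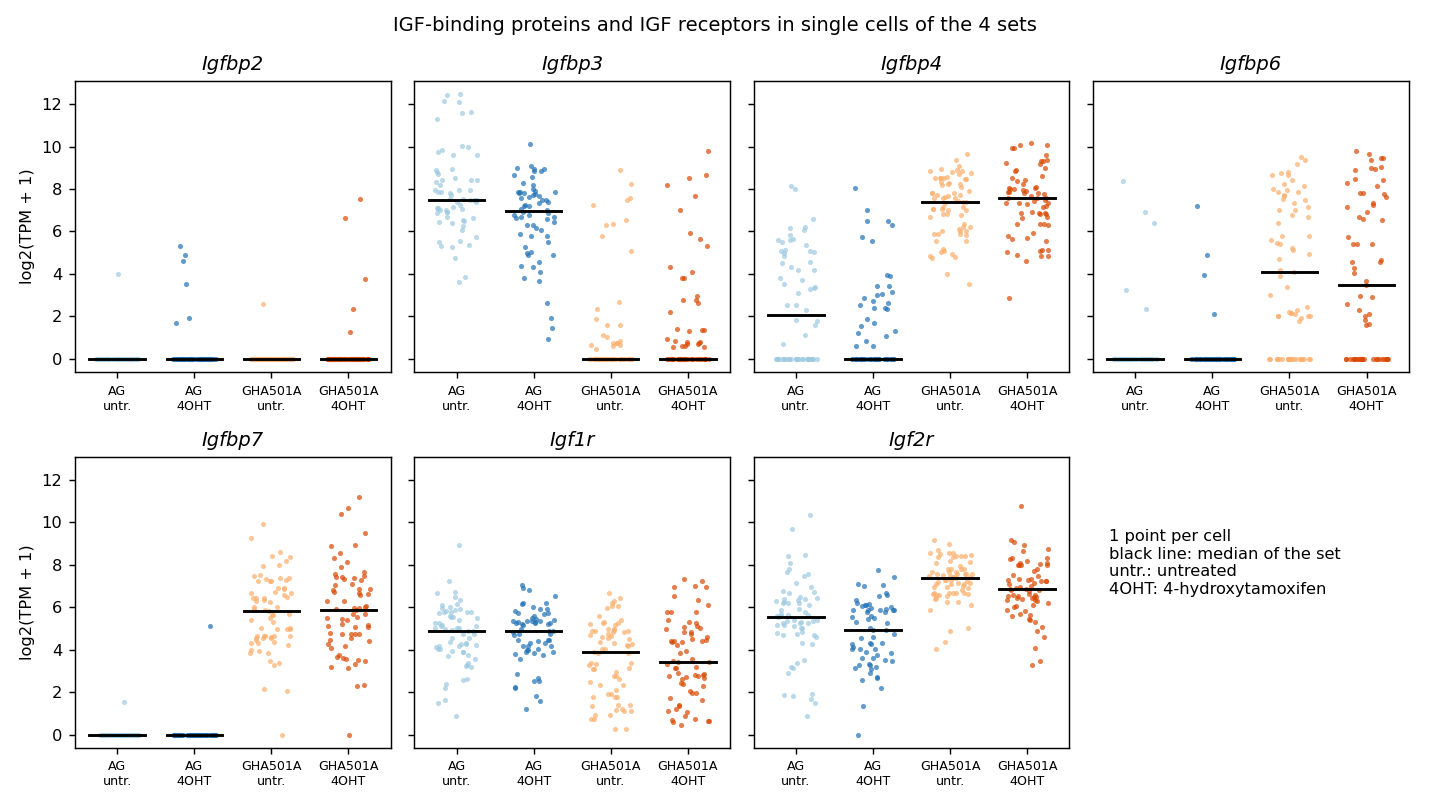
Level of each of the 7 genes in every cell, as log2(TPM + 1), in the 4 sets, with 1 point per cell and a black line at the median of the set. Igfbp3 is high in both AG sets and at a median of 0 in both GHA501A sets, Igfbp4, Igfbp6 and Igfbp7 are higher in the GHA501A sets, and Igf1r and Igf2r were found in nearly every cell of all 4 sets.

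Igfbp3 was over 1 TPM in 66 of 66 untreated AG cells (lowest 11.2, median 180.9, highest 5665 TPM) and in 63 of 64 treated AG cells (lowest 0.891, median 125, highest 1130 TPM). In GHA501A it was over 1 TPM in 17 of 71 untreated cells (23.9%, Wilson 95% interval 15.5 to 35.04%) and 22 of 69 treated cells (31.9%, 22.1 to 43.6%), both with a median of 0. These intervals cover the counting of cells only. The highest GHA501A cells, at 483 and 899 TPM, lay within the AG range, so the cells of the series overlapped although their typical levels did not. The means of the sets were 659 and 176 TPM in AG and 23.4 and 36.8 TPM in GHA501A. On log2(mean TPM + 1) the GHA501A sets were lower by a difference of -3.49 ± 0.71 (SE, n = 2 sets against 2, adjusted p = 0.025 by limma), a fold of 11.2 on that scale. The call was lost when any of the 4 sets was left out, with differences from -4.44 to -2.54 and adjusted p from 0.055 to 0.161.

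Igfbp4, whose protein is known mainly as an inhibitor of IGF action, was over 1 TPM in all 71 untreated GHA501A cells (lowest 10.6, median 166.6, highest 797 TPM) and all 69 treated ones (lowest 6.33, median 187, highest 1155 TPM). In AG it was over 1 TPM in 37 of 66 untreated cells (median 3.24, highest 282 TPM) and 27 of 64 treated cells (median 0, highest 265 TPM). Every GHA501A cell therefore expressed it, and the upper AG cells reached the middle of the GHA501A range. The difference was 3.70 ± 0.36 on the log2 scale (adjusted p = 0.0029), a fold of 13. Without the untreated or without the treated AG set the adjusted p was 0.0501 or 0.0524, just past the threshold, with differences of 4.06 and 3.34.

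Igfbp6, which prefers IGF2 over IGF1, split the GHA501A cells. It was over 1 TPM in 51 of 71 untreated cells (71.8%, interval 60.5 to 81.0%) and 44 of 69 treated cells (63.8%, 51.98 to 74.1%), with medians of 15.8 and 10.1 and highest values of 725 and 880 TPM. The lower quartile of each GHA501A set was at 0 and the upper quartiles began at 169.6 and 163.0 TPM. On the log2(TPM + 1) scale, its SD over cells was 3.35 in untreated and 3.61 in treated GHA501A cells. That of Igfbp4 was 1.39 and 1.55 on the same scale. In AG, Igfbp6 was found in 5 of 66 and 4 of 64 cells, which reached 329 and 146 TPM. The difference was 4.30 ± 0.48 (adjusted p = 0.0043). It missed the threshold without the untreated (4.46, adjusted p = 0.0541) or the treated GHA501A set (4.15, 0.0603).

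Igfbp7 was found in nearly every GHA501A cell and in few AG cells. It was over 1 TPM in 70 of 71 untreated GHA501A cells (lowest 0, median 56.2, highest 957 TPM) and 68 of 69 treated ones (lowest 0, median 57.9, highest 2312 TPM). In AG, 1 of 66 untreated cells held it at 1.92 TPM and 1 of 64 treated cells at 33.4 TPM, and the other AG cells were listed at 0. The difference was 6.74 ± 0.39 (adjusted p = 9.4e-04), for a gene that only GHA501A cells brought past the filter, so that its direction was set by the filter. It became 6.46 with an adjusted p of 0.0504 without the untreated AG set. Some widely expressed genes of the pathway were also at or near 0 in AG cells: Shc1 and Akt2 exceeded 1 TPM in 0 of 66 and 0 of 64 AG cells each, and Tsc2 in 1 of 66 and 1 of 64. Over the genes tested, 9 were at 0 in every AG cell alone and 292 in every GHA501A cell alone. Whether the zeros of Igfbp7 in AG cells share their origin with those of such genes was not tested.

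Igfbp2, whose protein is abundant in serum, was rare everywhere. It was over 1 TPM in 1 of 66 and 6 of 64 AG cells and in 1 of 71 and 5 of 69 GHA501A cells (untreated and treated), with a highest value of 186 TPM in a treated GHA501A cell. The difference between the series was 0.41 ± 0.90, with a 95% interval from -1.99 to 2.80, and its direction turned under other settings.

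The receptors were present in nearly all cells. Igf1r was over 1 TPM in 65 of 66 untreated (lowest 0.811, median 28.8, highest 494 TPM) and 64 of 64 treated AG cells (lowest 1.27, median 28.2, highest 129 TPM). In GHA501A it was over 1 TPM in 65 of 71 untreated (lowest 0.183, median 13.6, highest 101 TPM) and 62 of 69 treated cells (lowest 0.372, median 9.72, highest 157.3 TPM). The sets overlapped over most of their range, with the medians of GHA501A under those of AG. The difference of -0.69 ± 0.27 missed the threshold (95% interval -1.42 to 0.04, adjusted p = 0.1297). With the mean of the single-cell log values in place of the log of the mean, it was -1.11 and passed (adjusted p = 0.0042).

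Igf2r went the other way. Its medians were 45.8 and 29.4 TPM in untreated and treated AG cells and 163.5 and 115.5 TPM in GHA501A cells, where all 71 and 69 cells were over 1 TPM. The single highest AG cell, at 1314 TPM, lay above the highest untreated GHA501A cell at 569.9 TPM, so the ranges overlapped. The difference of 1.46 ± 0.46 missed the threshold (95% interval 0.24 to 2.68, adjusted p = 0.076), and it passed with the mean of single-cell log values (1.94, adjusted p = 0.0081).

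TPM is scaled by gene length, so levels can be ordered between genes. By mean TPM of a set, the order was Igfbp3, Igf2r, Igf1r, Igfbp4, Igfbp6, Igfbp2 and Igfbp7 in both AG sets. It was Igfbp4 first and Igf2r second in both GHA501A sets, then Igfbp6 (107) before Igfbp7 (102.9 TPM) in untreated and Igfbp7 (172) before Igfbp6 (132.4 TPM) in treated cells, and Igfbp3, Igf1r and Igfbp2 last. On the log2(mean TPM + 1) scale, Igfbp6 at 6.91 ± 0.21 and Igfbp7 at 7.07 ± 0.52 (SD, n = 2 sets) in GHA501A did not differ beyond their spread, and neither did Igfbp3 at 4.92 ± 0.45 and Igf1r at 4.59 ± 0.22. In AG, Igfbp3 at 8.41 ± 1.34 stood above Igf2r at 6.05 ± 0.82, which was within its spread of Igf1r at 5.28 ± 0.18. The lowest pair in AG, Igfbp2 at 0.86 ± 0.79 and Igfbp7 at 0.32 ± 0.40, did not differ beyond its spread either. Each spread is over the untreated and the treated set of a series, so it includes any difference between them and does not use the order within a set.

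Among the 5 binding protein genes with a row, a single transcript dominated in AG cells and not in GHA501A cells. Igfbp5 has no row, so its part in the leading gene, the shares and the sums is not known. The zeros of Igfbp7 in AG cells, whose origin was not tested, also enter these values. Igfbp3 had the highest TPM of the 5 binding protein genes in 63 of 66 untreated and 59 of 64 treated AG cells, and it made up 95.5% and 90.4% of their summed binding protein TPM. In GHA501A, Igfbp4 led in 43 of 71 untreated and 40 of 69 treated cells (47.4% and 44.4% of the sum), Igfbp7 in 12 and 14, Igfbp6 in 11 and 11 and Igfbp3 in 5 and 4. The median number of binding protein genes over 1 TPM was 2 and 1 per AG cell and 3 and 3 per GHA501A cell. The median of the sum was 228 and 141.1 TPM in AG and 384 and 392 TPM in GHA501A.

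The small group of 20 keratinocyte-marker cells inside GHA501A allows the marker classes to be compared within the same libraries. The member genes are in neither marker list, so the split did not use them. Igfbp3 was over 1 TPM in 8 of 8 untreated and 10 of 12 treated keratinocyte-marker cells, against 8 of 62 and 12 of 55 fibroblast-marker cells. Its mean was 140 against 7.19 TPM in untreated and 171 against 8.92 TPM in treated cells. Igfbp3 was thus higher with the keratinocyte markers in both sets, though 20 of the 117 fibroblast-marker cells also held it. Krt14, a marker that the split itself used, was over 1 TPM in 38 of 62 untreated and 49 of 55 treated fibroblast-marker cells. Whether RNA of keratinocyte-marker cells adds to the Igfbp3 of fibroblast-marker cells was not tested.

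Igfbp4 showed the reverse order without being absent from either class. Its mean in keratinocyte-marker cells was 35.5 and 68.9 TPM, which is 15.1% and 21.1% of the 235 and 326 TPM in fibroblast-marker cells of the same set, and it was over 1 TPM in 20 of 20 keratinocyte-marker cells. Col1a1, a marker that the split itself used, was also over 1 TPM in these 20 cells, at 0.654% and 3.25% of its mean in fibroblast-marker cells. Whether RNA of fibroblast-marker cells adds to the Igfbp4 of keratinocyte-marker cells was not tested.

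Igfbp6 was over 1 TPM in 47 of 62 untreated and 39 of 55 treated fibroblast-marker cells, with means of 117.9 and 162.3 TPM. Among keratinocyte-marker cells it was over 1 TPM in 3 of 8 and 4 of 12, with means of 38.3 and 1.33 TPM. In the untreated set a single keratinocyte-marker cell at 299.9 TPM carried nearly all of that mean, and 5 of the 8 cells were at 0.

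The means of Igfbp7 did not keep the same order of the marker classes in both sets. Keratinocyte-marker cells of GHA501A held a mean of 81.6 and 427 TPM, which is 77.03% and 352% of the 105.9 and 121 TPM in fibroblast-marker cells. It was over 1 TPM in 20 of 20 of them (range 19.5 to 180 TPM in untreated and 3.90 to 2312 TPM in treated cells), whereas 2 of 129 keratinocyte-marker cells of AG held it. The treated mean rests largely on 2 of the 12 cells, at 1630 and 2312 TPM. The treated median was 112.2 TPM against 49.5 TPM in fibroblast-marker cells, and the untreated median was 79.8 against 49.3 TPM. The range of the untreated keratinocyte-marker cells lay within that of the fibroblast-marker cells (0 to 957 TPM), and the highest treated cell was a keratinocyte-marker cell.

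**Figure D2:**
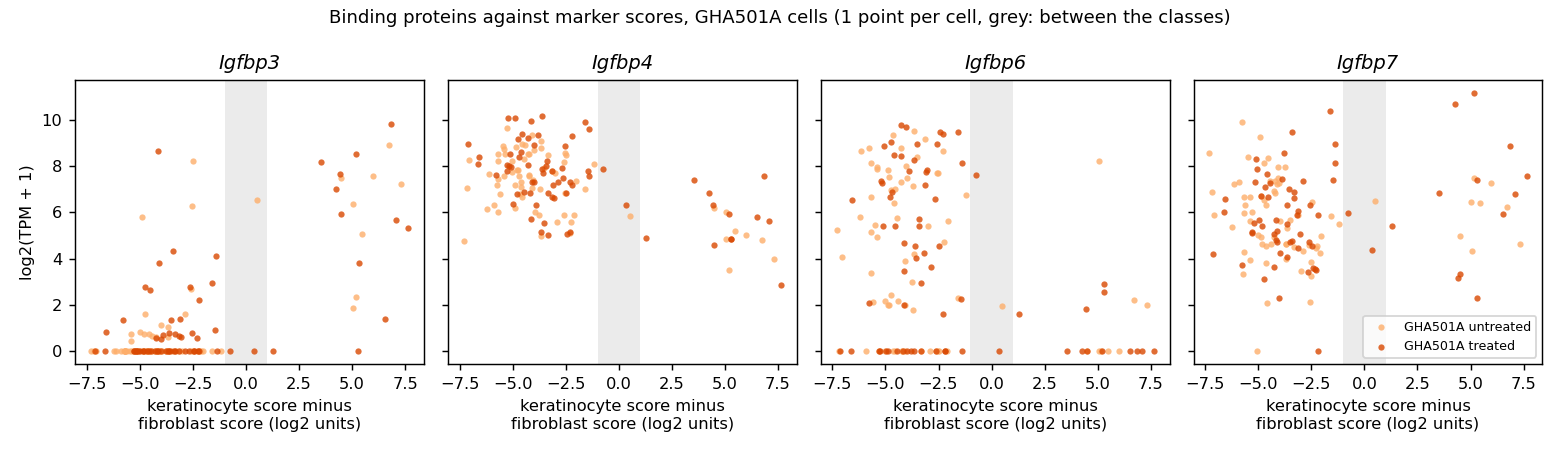
Level of 4 binding protein genes, as log2(TPM + 1), against the keratinocyte score minus the fibroblast score in the 140 GHA501A cells, with 1 point per cell and grey shading where cells lie between the classes. Igfbp3 is high mostly on the right, in keratinocyte-marker cells, and Igfbp4 and Igfbp6 are higher on the left. Igfbp7 is found on both sides, with its highest values on the right.

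The fit of these classes, with the set as a block, called 0 of 12355 genes (0% in either direction by limma), and none of the 7 members. At an unadjusted p under 0.05 it held 1638 genes (13.3%) and 2 members. These were Igfbp3, with -4.11 ± 0.25 for fibroblast-marker minus keratinocyte-marker cells (p = 0.0026, adjusted p = 0.319), and Igfbp4, with 2.46 ± 0.29 (p = 0.011, adjusted p = 0.321). Of the others, Igfbp6 was at 3.86 ± 1.56, Igfbp7 at -0.72 ± 0.78, Igf1r at -0.76 ± 0.34, Igf2r at -0.02 ± 0.25 and Igfbp2 at -1.14 ± 0.89 (n = 2 sets). With 1 residual degree of freedom, this comparison leaves wide intervals, such as -3.87 to 2.43 for Igfbp7.

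**Figure D3:**
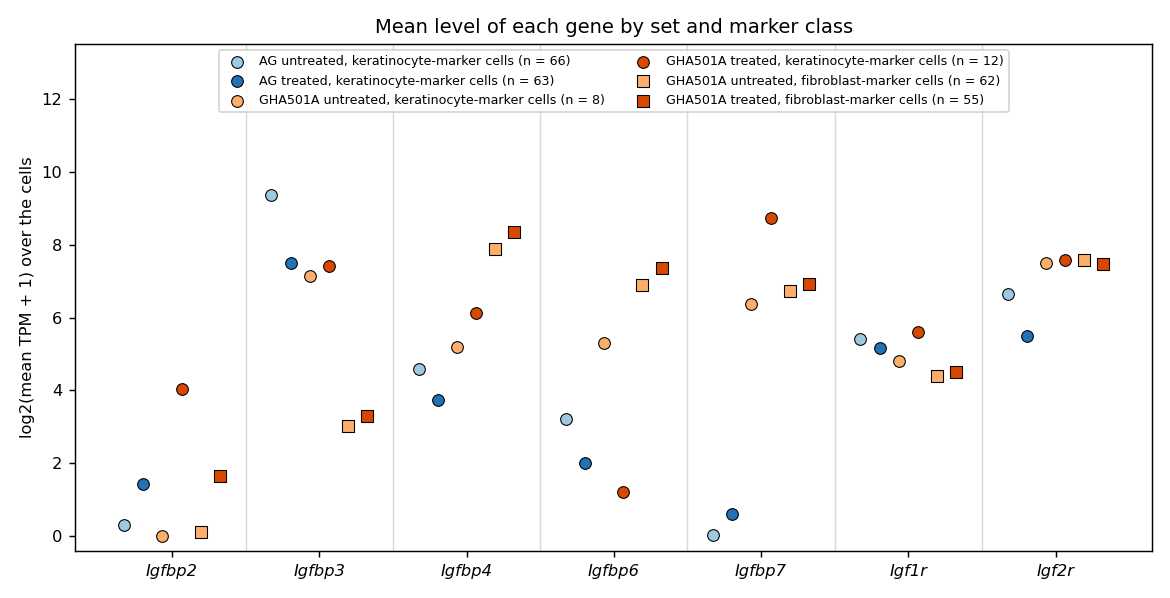
Mean level of each gene, as log2(mean TPM + 1) over the cells, in keratinocyte-marker cells (circles) of the 4 sets and in fibroblast-marker cells (squares) of the GHA501A sets, with the number of cells in the legend and no error bars since each symbol is 1 set. For Igfbp3 the GHA501A circles sit near the treated AG circle. For Igfbp7 the untreated GHA501A circle (6.37) sits near the squares (6.74 untreated and 6.93 treated) and the treated circle (8.74) above them.

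Keratinocyte-marker cells were then compared between the series. Their markers were not alike, since mean Krt14 of the untreated sets was 1854 TPM in GHA501A and 5314 TPM in AG, and Col1a1 was over 1 TPM in 20 of 20 GHA501A cells and 43 of 129 AG cells. Here 14.9% of all genes passed (9.19% higher and 5.69% lower in GHA501A), and 30.3% had an unadjusted p under 0.05. Of the members, 2 had such a p (Igfbp7 and Igf2r) and Igfbp7 passed, with 7.23 ± 0.93 (adjusted p = 0.020), again with the direction that the filter set. The difference of Igfbp3 was -1.14 ± 0.75 (95% interval -3.24 to 0.95) and that of Igfbp4 was 1.503 ± 0.55 (-0.03 to 3.03), and neither passed. Igf2r was at 1.48 ± 0.51 (adjusted p = 0.156), Igf1r at -0.07 ± 0.43, Igfbp6 at 0.65 ± 1.55 and Igfbp2 at 1.16 ± 1.53. The call of Igfbp7 was lost without the untreated (6.94, adjusted p = 0.282) or the treated AG set (7.51, adjusted p = 0.256). The GHA501A values rest on 8 and 12 cells.

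The binding protein with the highest level also varied among these 20 cells. Igfbp3 led in 4 of 8 untreated and 4 of 12 treated cells and Igfbp7 in 3 of 8 and 7 of 12. In fibroblast-marker cells Igfbp4 led in 43 of 62 and 37 of 55, and Igfbp3 in 0 of 62 and 0 of 55. With so few keratinocyte-marker cells, the Wilson 95% intervals of the Igfbp3 shares run from 21.5 to 78.5% and from 13.8 to 60.9%.

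**Figure D4:**
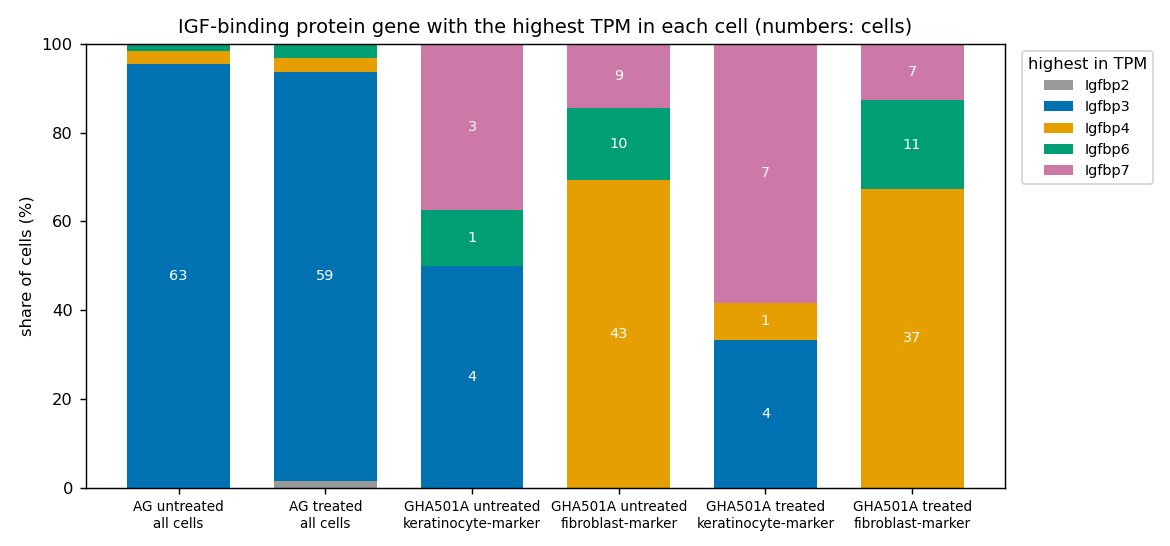
Share of cells, in percent, in which each of the 5 binding protein genes with a row had the highest TPM. Bars are the AG sets and the marker classes of the GHA501A sets, with the number of cells written in the larger segments. Igfbp3 leads in 63 and 59 AG cells, Igfbp4 in 43 and 37 fibroblast-marker cells, and Igfbp3 and Igfbp7 share most of the keratinocyte-marker cells of GHA501A.

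Treatment with 4OHT, which switches on beta-catenin in the transgenic neighbours, was compared over the 4 sets with the series as a block. Of all 12355 genes, 0 (0%) passed by limma, and 459 (3.72%) had an unadjusted p under 0.05. None of the 7 members passed, and Igfbp2 was the member with an unadjusted p under 0.05, at 1.72 ± 0.43 (p = 0.013, adjusted p = 0.998), a value that rests on 2 untreated and 11 treated cells over 1 TPM. The median over the members was -0.16 and that over all genes 0.00. A p that misses the threshold does not show that the genes did not respond, and the 95% intervals were wide, from -2.44 to 1.17 for Igfbp3 and from -1.27 to 0.95 for Igfbp4.

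Within each series there was 1 set per treatment and no test. The level of Igfbp3, as log2(mean TPM + 1), was lower in treated AG cells by a difference of -1.90 and higher in treated GHA501A cells by 0.63. In AG, 7 of the 66 untreated cells, picked after their values were seen, lay between 2530 and 5665 TPM, above the highest treated cell. They held 66.1% of the summed Igfbp3 TPM of that set, and they had fewer genes over 1 TPM (median 5097) than the other 59 cells (median 6280). The medians of the sets, 180.9 and 125.1 TPM, were closer than their means.

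Igfbp2 was higher in treated cells of both series, at 1.12 in AG and 2.33 in GHA501A, on few cells. Igfbp4 was at -0.72 in AG and 0.39 in GHA501A, Igfbp6 at -1.21 and 0.30, Igf1r at -0.26 and 0.31 and Igf2r at -1.16 and -0.08 (treated minus untreated). Igfbp7 was at 0.56 and 0.73, and its AG value rests on 2 cells. The fraction of keratinocyte-marker cells in GHA501A was 11.3% in untreated and 17.4% in treated cells, and its part in these values was not tested. Among GHA501A fibroblast-marker cells alone, Igfbp3 was at 0.28, Igfbp4 at 0.47, Igfbp6 at 0.46 and Igfbp7 at 0.19. Among the 8 and 12 keratinocyte-marker cells, Igfbp3 was at 0.28, Igfbp4 at 0.94, Igfbp6 at -4.07 and Igfbp7 at 2.37, the last pair resting on the few high cells named above.

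The genes that most resembled each member across the cells of a set were named by the mean Spearman rho within sets. Points of a set share a culture and a library preparation, and these are descriptions only. The GHA501A sets also pool both marker classes, whose part in the rho values was not tested. For Igfbp3 the closest of 7053 genes over 4 sets were the adhesion genes Nectin1 (0.34) and Epcam (0.32), with Perp (0.34), a desmosome component, between them. For Igfbp4 they were the matrix genes Fn1 (0.40), Col1a1 (0.38) and Pcolce (0.38). Perp and Epcam are in the keratinocyte list and Col1a1 is in the fibroblast list. For Igfbp6, over the 2 GHA501A sets and 8642 genes, they were Fth1 (0.36), Fgf7 (0.35) and Sned1 (0.35), and for Igfbp7 Arf5 (0.44), Ctcfl (0.42) and Atp6v0e2 (0.40). Ctcfl was also among the 3 closest to Igf1r (0.36), beside Zzef1 (0.34) and Grk4 (0.34). It was listed for Igf2r (0.32) too, beside Son (0.33) and Slc38a6 (0.32). Some of these pairs had a rho near 0 in their lowest set. Igf2r with Ctcfl ran from -0.01 to 0.55, Igfbp4 with Pcolce from 0.01 to 0.55 and Igfbp3 with Perp from 0.04 to 0.52. Other pairs varied less, such as Igfbp7 with Atp6v0e2, at 0.40 in both sets.

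Among the members themselves the correlations were also weak. Igfbp4 and Igfbp6 had a rho of 0.29 in 71 untreated and 0.28 in 69 treated GHA501A cells, and Igfbp3 and Igfbp4 had -0.28 and -0.14. These GHA501A values pool both marker classes, and the part of the classes in them was not tested. In AG, Igfbp3 and Igf2r had 0.44 in 66 untreated and 0.28 in 64 treated cells. Igfbp3 and Igfbp4 had 0.04 and 0.25 in these sets, so the opposite order of both genes between the series was not seen among the cells of AG. In untreated AG cells Igfbp3 also had -0.38 with the number of genes over 1 TPM.

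Of 39 other genes of the IGF pathway, 33 had a row and 31 were tested. Between the series, 6 were higher and 2 lower in GHA501A, against 19.3% higher and 11.9% lower among all genes, and the median was -0.15 against 0.01 over all genes. The called genes of largest size were Tsc2 (5.61 ± 0.29), a brake on mTOR, Foxo3 (5.16 ± 0.27), a transcription factor that AKT keeps out of the nucleus, the adaptor Shc1 (3.47 ± 0.25), the kinase Akt2 (2.58 ± 0.27), the PI3K subunit Pik3r1 (1.91 ± 0.33) and Htra3 (1.88 ± 0.30), a secreted protease. Their adjusted p lay between 7.8e-04 and 0.016. The 2 lower genes, of smaller size, were the receptor substrate Irs1 (-1.61 ± 0.24, adjusted p = 0.011 by limma) and Igf2bp2 (-1.21 ± 0.26, adjusted p = 0.028). Tsc2, Shc1, Akt2 and Htra3 passed the filter on low values only through GHA501A cells, so their direction was set by the filter and their calls are no support.

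These genes differ in how they were spread over cells. Foxo3 was over 1 TPM in 71 of 71 and 67 of 69 GHA501A cells and in 5 of 66 and 7 of 64 AG cells, a pattern close to that of Igfbp7. The origin of the low values of Foxo3, Tsc2, Shc1 and Akt2 in AG cells was not tested. Htra3 was over 1 TPM in 10 of 71 and 16 of 69 GHA501A cells and in 0 of 66 and 1 of 64 AG cells. The insulin receptor gene Insr, whose ligand was in the medium, was over 1 TPM in 54 of 66 and 53 of 64 AG cells and in 43 of 71 and 43 of 69 GHA501A cells, and did not pass.

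Each group holds few genes, so nothing particular to a group is read from its count. The all-gene shares to set beside these counts are 19.3% higher and 11.9% lower. Of 14 genes of PI3K, AKT, mTOR and FOXO, 4 were higher and 0 lower. Of 6 receptor substrates and adaptors 1 was higher and 1 lower, of 7 proteases of binding proteins and their inhibitors 1 was higher, and of 3 in the group of Igf2 mRNA-binding proteins 1 was lower. Between keratinocyte-marker cells of the series, 5 of 31 were higher and 0 lower, against 9.19% and 5.69% of all genes: Foxo3 (4.97 ± 0.36), Tsc2 (4.34 ± 0.77), Akt2 (3.31 ± 0.38), Shc1 (2.60 ± 0.47) and Irs2 (2.31 ± 0.45), a receptor substrate. The limit set by the filter holds here too for Tsc2, Akt2 and Shc1. The untested origin of the low AG values holds for these genes and for Foxo3. With treatment and between the marker classes 0 of 31 passed, and 1 and 5 had an unadjusted p under 0.05 by limma.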

How the data were processed

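Single cells of 4 sets (2 series, untreated and treated) were analysed. The deposited table holds TPM values that the authors made by trimming reads with Cutadapt, aligning them to GRCm38 with TopHat, discarding multiply mapped reads, counting with featureCounts and scaling. Versions and strand setting are not given in the sources used here. Doublets had been removed by imaging. Every cell sums to 1000000, so the values keep no depth of single cells, and the precision of a low value is not known from them.

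Of 294 columns, 16 have no GEO label and stayed out, and 8 AG cells with conflicting labels were left out, which left 270. Genes over 1 TPM in more than 5 cells were kept. The mean TPM of each set was taken as 1 sample and log2(mean TPM + 1) was tested with limma 3.58.1 in R 4.3.3, with Benjamini-Hochberg adjustment over all genes. Cells are not replicates, and the labels do not say that the sets are separate cultures, so p-values measure only the spread between sets. Thresholds were an adjusted p under 0.05 and a log2 difference over 0.5, and fold changes of low genes are understated by the pseudocount of 1. Tables were made in Python 3.11.15 with pandas 2.3.3, numpy 2.4.6 and scipy 1.17.1 and figures with matplotlib 3.10.9. Positions came from GENCODE M21 and promoters from RefSeq. The fitting step was run on simulated sets, with recovery of known changes required only at a small fixed spread. That does not show how the fits perform at the spread of these data.

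The members, marker lists and pathway list were chosen with earlier results of these data known, and Igfbp3 and Igfbp4 stand on a marker list the study drew from these cells. Named genes were all members, at most 6 pathway genes per comparison past the thresholds and 3 most alike genes per member over 1 TPM in at least 20% of cells in 2 or more sets. Insr, Irs1, Igf2bp2, some cell counts and the 7 high Igfbp3 cells were added after their values were seen. Alternatives were another pseudocount (0.1), other filters, the mean of log values, each set left out, other blocks, both readings of the 8 cells and other class borders.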

Additional observations from a re-analysis of the deposited data

Results flagged for a closer look

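For 4 genes the treated minus untreated difference, on log2(mean TPM + 1), had opposite signs in the 2 series, with 1 set per treatment and series. The difference between the series was not tested. Igfbp3 was at -1.90 in AG and 0.63 in GHA501A. Igfbp4 was at -0.72 in AG and 0.39 in GHA501A, and Igfbp6 at -1.21 and 0.30, the AG value of Igfbp6 resting on 5 untreated and 4 treated cells over 1 TPM. Igf1r was at -0.26 in AG and 0.31 in GHA501A. With the mean over cells of log2(TPM + 1), the values were -1.25 and 0.36 for Igfbp3, -0.97 and 0.22 for Igfbp4 and -0.05 and 0.03 for Igf1r, whereas Igfbp6 was negative in both series, at -0.13 and -0.20.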

How the results depend on the processing

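The differences of Igfbp3, Igfbp4, Igfbp6 and Igfbp7 between the series kept their direction under all 12 alternatives each, in ranges of -5.80 to -2.54, 3.34 to 5.27, 3.63 to 4.91 and 5.76 to 8.88. They lost their calls in 4, 2, 2 and 1 of these, all with a set left out, which leaves 1 sample in a group that is taken to vary like the other. With a set left out, 1023 to 2229 of the genes and 1 to 2 members passed between the series, and 0 to 2758 genes and 0 to 1 members between their keratinocyte-marker cells, where both counts were 0 by limma without the untreated or the treated AG set (2394 and 2539 genes and 1 and 1 members at an unadjusted p under 0.05). With the mean of log values 5841 genes passed between the series, in place of 3853, and 3 members (Igfbp4, Igf2r and Igfbp7) between keratinocyte-marker cells, in place of 1. The cause was not tested. Directions turned for small differences. For treatment, Igf1r was at -0.0079 with the mean of log values, -0.017 with the 8 cells by library name and -0.063 in majority-class cells, an alternative chosen after seeing the data. Igfbp2 between the series was at -0.027 with the mean of log values, -0.15 without untreated AG, and ran from -0.76 without treated to 1.57 without untreated GHA501A. Igf2r between classes split at equal scores was at 0.028. Between keratinocyte-marker cells with a set left out, Igf1r was at 0.050 without untreated AG and ran from -0.47 to 0.32, Igfbp6 from -1.39 to 2.68 and Igfbp2 from -0.87 to 3.18. No replicate block in the treatment and class fits left 0 called (53 and 2163 genes at an unadjusted p under 0.05), and treatment as a replicate block gave 3580 and 1369 genes in the series fits, with 4 and 1 members. The labels tie the sets by treatment and name no animal, so no pairing was assumed. Without a set, the treatment and class fits have no residual degrees of freedom and give values with no test. Counting cells over 10 in place of 1 TPM lowered the share with Igfbp6 to 52.1% and 50.7% in untreated and treated GHA501A cells and that with Igfbp3 to 14.1% and 18.8%. The TPM values keep no read count per cell, so no limit was set for a value of 0 TPM.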

Other observations

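The 8 AG cells whose library name and treatment label disagree are given here as values. Igfbp3 was over 1 TPM in 5 of 5 cells labelled treated (108 to 2087, median 194 TPM) and 3 of 3 labelled untreated (30.8 to 510, median 143.3 TPM). Igfbp6 and Igfbp7 were at 0 in all 8, like most AG cells. Igf1r was over 1 TPM in 5 of 5 and 3 of 3, and Igf2r in 4 of 5 and 3 of 3. The highest of these Igfbp3 values, 2087 TPM, came from a cell labelled treated and lay above every cell labelled treated without conflict, whose highest value was 1130 TPM.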
